A study of Mus musculus with 6 samples.

Results

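The genes described here are 9 that carry iron into, around and out of a mouse cell: the uptake genes Tfrc, Steap3 and Slc11a2, the storage genes Fth1, Ftl1 and Ncoa4, the exporter gene Slc40a1, and the regulator genes Ireb2 and Aco1. They are 9 of the 54146 genes in the tables. They were listed by name and selected partly on measured values, because Slc40a1 and Ftl1 were much lower in both knockout clones than in wild type. Their differences from wild type are therefore given as descriptions without a test. The values came from 4T1 cells, a mammary carcinoma line of BALB/c mice, grown in culture. There were 3 groups: wild-type cells (WT), and clone 1 and clone 2, each a Mki67-/- knockout. Mki67 encodes Ki-67, a protein used to mark proliferating cells. Each group had 2 libraries of rRNA-depleted total RNA, and each knockout line is a single clone. The labels do not say whether duplicate libraries are from separate cultures, so the errors and p-values here cover the spread between duplicates, and that spread may be technical.

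Iron reaches most cells bound to transferrin, which the transferrin receptor carries into endosomes. There a STEAP reductase reduces it and the transporter DMT1 moves it to the cytosol. Ferritin, a shell of heavy and light chains, stores what is not used, the receptor NCOA4 delivers ferritin to lysosomes when iron is needed, and ferroportin is the only known iron exporter of mammalian cells. The iron regulatory proteins IRP1 and IRP2 bind a short hairpin, the iron-responsive element (IRE), when iron is scarce. Bound in a 5′ UTR they block translation, and bound in the 3′ UTR of the transferrin receptor mRNA they protect it from decay. In tumours, including those of the breast, low ferroportin and high transferrin receptor levels have been described.

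The hairpins below are shown because they divide the genes by the kind of control they are known for. The search took, on the transcript strand of every annotated UTR, a C followed by 5 bases, the loop CAGTGN with N other than G, and 5 bases that pair with the first 5, G-T pairs included. Capitals mark the loop. Sequences and positions are from GENCODE M21 on GRCm38, 5′ to 3′ along the transcript, each with 6 bases on either side of the matched stretch. The first 3 lie in 5′ UTRs, at chr19:9982732-9982760 on the plus strand, chr7:45459779-45459807 on the minus strand and chr1:45925465-45925493 on the minus strand.
Fth1: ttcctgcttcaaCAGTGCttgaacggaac
Ftl1: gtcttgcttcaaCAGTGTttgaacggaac
Slc40a1: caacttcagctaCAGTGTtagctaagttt
The next 4 lie in the 3′ UTR of Tfrc, at chr16:32631219-32631247, chr16:32631598-32631626, chr16:32631663-32631691 and chr16:32631710-32631738 on the plus strand. The last lies in the 3′ UTR of one annotated Slc11a2 transcript, at chr15:100395153-100395181 on the minus strand, and has 1 unpaired position in the stem.
Tfrc a: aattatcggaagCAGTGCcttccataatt
Tfrc b: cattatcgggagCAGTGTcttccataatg
Tfrc c: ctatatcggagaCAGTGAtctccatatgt
Tfrc d: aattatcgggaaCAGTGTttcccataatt
Slc11a2: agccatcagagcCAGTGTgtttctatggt
A fully paired match was found in the 5′ UTR of 0.11% of 20853 genes and in the 3′ UTR of 0.521% of 21127 genes. With 1 unpaired position allowed these shares were 0.705% and 3.61%. No match to these letters was found in the UTRs of Steap3, Ncoa4, Ireb2 or Aco1.

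Values are CPM, the gene's reads on its own strand relative to the library's gene reads, after scaling of the libraries with the TMM method. Gene reads ranged from 10428970 to 22658499 per library, and all 9 genes had enough reads to be tested. Mki67 itself was at 736 and 647 CPM in WT, 85.8 and 103 CPM in clone 1, and 39.9 and 52.7 CPM in clone 2. Much of the transcriptome differed from WT: 50.4% of 13755 tested genes passed an adjusted p of 0.05 in clone 1 and 53.1% in clone 2, in a quasi-likelihood test by edgeR, Benjamini-Hochberg adjusted over all tested genes. The fitted log2 fold changes below, with their standard errors (SE), come from the same model. Of 8 mammary epithelium markers 7 were tested and Krt5 had no read. Their summed level was 2719 and 3034 CPM in WT and 3848 to 4168 CPM in the clones. Epcam, Krt18, Krt14 and Cldn7 rose over both clones and Cdh1, Krt8 and Krt19 did not pass, and the part of this difference in the results below was not tested.

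In both clones the exporter gene and the light chain gene of ferritin were far below WT, and Steap3 was lower by more than 10-fold. The ferritin heavy chain gene, Ncoa4 and Ireb2 were also below WT in all 4 clone libraries, by smaller factors. Slc11a2 was above WT in all 4, mainly in clone 2, while Tfrc and Aco1 overlapped with WT. So 6 of the 9 genes had all 4 clone libraries below both WT libraries and 1 had all 4 above. Among all 13755 tested genes, 30.1% lay wholly below and 27.7% wholly above. The median log2 fold change of the 9 genes was -0.73 in clone 1 and -0.67 in clone 2, against -0.01 and -0.02 over all tested genes. These counts and medians include Slc40a1 and Ftl1, chosen for low values in both clones, so they do not test the set. In these bulk libraries, fewer cells of a type and less RNA per cell cannot be told apart.

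**Figure D1:**
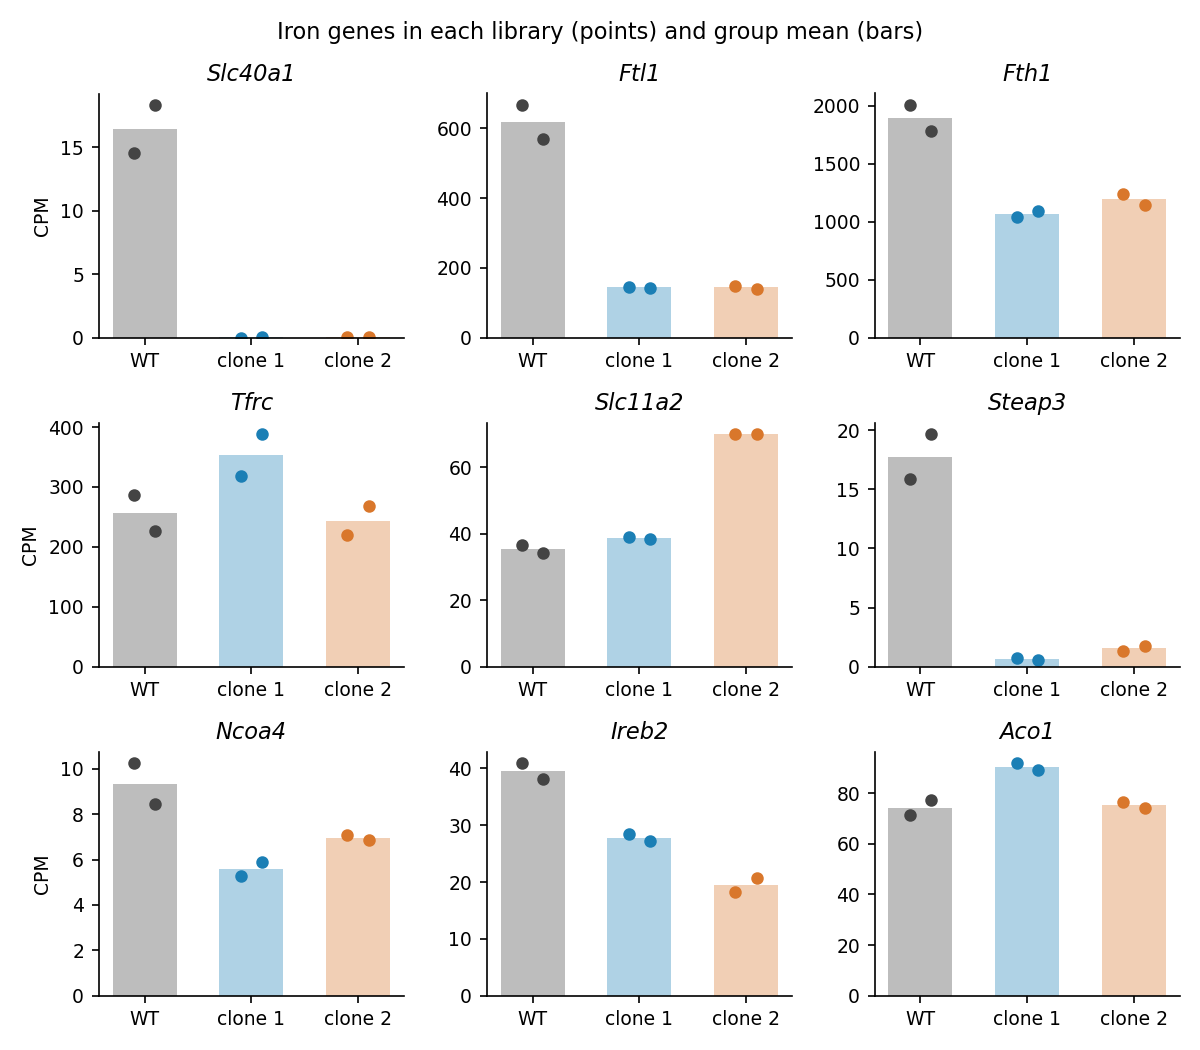
Normalised level (CPM, linear axis from 0) of the 9 iron genes in WT, knockout clone 1 and knockout clone 2. Points are single libraries and bars are means of 2; Slc40a1 stood at 14.5 and 18.3 CPM in WT and under 0.1 CPM in every clone library, and Slc11a2 near 70.0 CPM only in clone 2.

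Uptake begins with Tfrc, which encodes the transferrin receptor. Its level was 287 and 227 CPM in WT, 318 and 388 CPM in clone 1, and 220 and 268 CPM in clone 2. Both clone 1 libraries lay above WT, and those of clone 2 lay within or just under the WT range. The fitted log2 fold change from WT was 0.46 (SE 0.15) in clone 1 and -0.07 (SE 0.15) in clone 2. The clones differed from each other by -0.53 (clone 2 minus clone 1, SE 0.15; adjusted p = 0.0210, edgeR). That call was lost without clone 1 replicate 2 (log2 difference -0.38, adjusted p = 0.230, edgeR) and without clone 2 replicate 1 (-0.39, adjusted p = 0.236).

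Steap3 encodes the endosomal ferrireductase that prepares transferrin iron for transport. It was at 15.9 and 19.7 CPM in WT, 0.705 and 0.584 CPM in clone 1, and 1.35 and 1.77 CPM in clone 2. These clone values rest on 16, 13, 23 and 41 reads. The groups were far apart: the lowest WT library was well above every clone library, and clone 2 lay above clone 1. From WT the fitted log2 fold change was -4.78 (SE 0.24) in clone 1 and -3.49 (SE 0.22) in clone 2. Steap3 was 2.44-fold higher in clone 2 than in clone 1 (log2 difference 1.28, SE 0.29; adjusted p = 0.00841, edgeR). Without clone 1 replicate 2 the adjusted p was 0.0653 (log2 difference 1.16), and without clone 2 replicate 2 it was 0.0924 (1.05), by the same edgeR test.

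Slc11a2 encodes DMT1, the transporter that moves ferrous iron across the endosomal and cell membranes. It was at 36.5 and 34.3 CPM in WT, 39.1 and 38.3 CPM in clone 1, and 70.0 and 70.0 CPM in clone 2. Clone 1 lay just above WT, and clone 2 stood clear of both. The log2 fold change from WT was 0.13 (SE 0.11) in clone 1 and 0.98 (SE 0.11) in clone 2. The clones differed by 0.85 (SE 0.11; adjusted p = 0.000277, edgeR), which was past the threshold whichever single library was left out. A protein-coding gene, Gm5475, overlaps Slc11a2 exons on the opposite strand and was counted apart from it by strand.

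Storage rests on ferritin. Fth1, the heavy chain that oxidises iron as it enters the shell, was at 2007 and 1786 CPM in WT, 1042 and 1094 CPM in clone 1, and 1244 and 1145 CPM in clone 2. All clone libraries lay below WT. From WT the fitted log2 fold change was -0.83 (SE 0.12) in clone 1 and -0.67 (SE 0.12) in clone 2. The clones differed by 0.16 (SE 0.11; adjusted p = 0.330, edgeR), which missed the threshold, though their libraries did not overlap.

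Ftl1, the light chain that favours formation of the iron core, was at 667 and 569 CPM in WT, 146 and 142 CPM in clone 1, and 149 and 140 CPM in clone 2. The 4 clone libraries fell within a factor of 1.06 of each other and all lay far below WT. The log2 fold change from WT was -2.10 (SE 0.12) in clone 1 and -2.10 (SE 0.12) in clone 2, which is 4.29-fold and 4.28-fold lower. Between the clones the difference was 0.01 (SE 0.12; adjusted p = 0.983, edgeR).

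The level of Ftl1 is less certain than its reads make it look. Of the 50-base stretches in its principal transcript, 90.6% also occur in at least 1 of 17 other annotated genes, among them Ftl1-ps1, Gm15590 and Gm10252, and multi-mapped reads were not counted. For Ncoa4 the share was 52.5% (with Gm6768), for Fth1 6.59% (with Gm6977), for Slc11a2 2.02%, and for the other 5 genes none. Of the 17 genes sharing Ftl1 sequence, Gm22133 (same strand) and Gm10252 (opposite strand) overlap exons of Ftl1 itself and are not copies elsewhere. The search covered both strands, so the stretches they share count in the 90.6%. The 17 genes together held 2.86 and 3.84 CPM in WT, 1.10 and 0.629 CPM in clone 1, and 0.707 and 1.08 CPM in clone 2. Adding them to Ftl1 gave mean levels of 621 CPM in WT, 145 CPM in clone 1 and 145 CPM in clone 2. The sum of the 17 genes was lower in the clones too, and small beside Ftl1. The multi-mapped reads left out of the tables were not analysed here. In the unstranded counts, which ignore strand, the log2 fold change of Ftl1 was -1.73 in clone 1 and -1.78 in clone 2. Reads on the strand opposite to Ftl1 numbered only 1 to 6 per library. Gm10252 overlaps Ftl1 exons on that strand, and its part in the smaller values was not tested.

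The balance of the ferritin chains differed between groups. Per kilobase of principal transcript, Fth1 reads exceeded Ftl1 reads by a ratio of 3.14 and 3.27 in the WT libraries. The ratio was 7.45 and 8.03 for clone 1 and 8.70 and 8.52 for clone 2. Both WT libraries thus stood below every clone library. The ratio is of uniquely mapped reads, so the shared stretches of Ftl1 lower its denominator in every library. The 2 genes together held 2674 and 2356 CPM in WT against 1188 to 1393 CPM in the clones.

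Ncoa4, the receptor that brings ferritin to the lysosome, was the lowest of the 9 genes per kilobase in WT by uniquely mapped reads. Since 52.5% of its 50-base stretches are shared with Gm6768, the level and rank of Ncoa4 are less certain. Its level was 10.3 and 8.44 CPM in WT, 5.29 and 5.89 CPM in clone 1, and 7.07 and 6.86 CPM in clone 2. All clone libraries lay below WT, and clone 2 above clone 1. From WT the fitted log2 fold change was -0.73 (SE 0.18) in clone 1 and -0.41 (SE 0.18) in clone 2, and the clones differed by 0.32 (SE 0.17; adjusted p = 0.207, edgeR). The median gene of its chromosome, 14, was at -0.25 in clone 1 and 0.08 in clone 2 against WT on the log2 scale. With each clone's chromosome medians against WT removed, the difference for Ncoa4 was -0.01.

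Slc40a1 encodes ferroportin, the iron exporter, and was nearly absent from both clones. Its level was 14.5 and 18.3 CPM in WT, from 147 and 310 reads. Clone 1 had 0 and 1 read (0 and 0.0450 CPM), and clone 2 had 1 and 2 reads (0.0589 and 0.0863 CPM). A count of 0 in clone 1 replicate 1 allows a level of up to 0.132 CPM, taken as 3 reads. With the libraries of a group summed, WT exceeded clone 1 by a ratio of 758 (exact 95% interval 135 to 30021) and clone 2 by a ratio of 226 (76.8 to 1099). Against both clones together the ratio was 359 (139 to 1323). These intervals cover counting error only. The fitted log2 values, -9.16 (SE 0.43) in clone 1 and -7.66 (SE 0.38) in clone 2, depend on the small count that the model adds to each library. With 4 clone reads in all, a difference between the clones was not detectable at this depth (log2 difference 1.49, SE 1.17; adjusted p = 0.377, edgeR).

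Ferroportin is known for high levels in macrophages that recycle iron, so macrophage markers were read beside it. Their summed level was 24.2 and 22.5 CPM in WT, 12.4 and 12.8 CPM in clone 1, and 29.0 and 25.2 CPM in clone 2. Of the 15 markers 8 had no read in any library, namely Adgre1, C1qa, C1qb, C1qc, Vsig4, Spic, Timd4 and Clec4f. Ptprc, the pan-leukocyte marker, had no read in WT. The sum was carried by 3 markers that moved in different directions. Cd68 fell from 15.5 and 10.3 CPM in WT to 2.16 to 3.47 CPM in the clones (log2 fold change over both clones -2.21, adjusted p = 1.18e-06, edgeR), the same direction as Slc40a1. Cd14 was at 7.59 and 10.9 CPM in WT, 7.01 and 7.96 CPM in clone 1, and 22.4 and 19.5 CPM in clone 2, and Csf1r rose from 0.986 and 1.30 CPM to 2.07 to 3.24 CPM. The part of these markers in the result for Slc40a1 was not tested. The erythroid sum was 0.354 to 1.18 CPM with no haemoglobin read, and the fibroblast sum was 0.176 to 0.295 CPM.

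The iron regulatory proteins are encoded by Ireb2 (IRP2) and Aco1 (IRP1, which is the cytosolic aconitase when it holds an iron-sulfur cluster). Ireb2 was at 40.9 and 38.2 CPM in WT, 28.4 and 27.2 CPM in clone 1, and 18.3 and 20.6 CPM in clone 2. The 3 groups did not overlap. The log2 fold change from WT was -0.51 (SE 0.13) in clone 1 and -1.02 (SE 0.13) in clone 2, and the clones differed by -0.51 (SE 0.13; adjusted p = 0.0127, edgeR). The call between the clones was lost without clone 1 replicate 1 (log2 difference -0.48, adjusted p = 0.117), clone 1 replicate 2 (-0.54, 0.0847) or clone 2 replicate 1 (-0.42, 0.135), again by edgeR.

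Aco1 was at 71.3 and 77.2 CPM in WT, 91.8 and 89.1 CPM in clone 1, and 76.6 and 74.0 CPM in clone 2. Clone 2 lay within the WT range and clone 1 above it. From WT the fitted log2 fold change was 0.28 (SE 0.11) in clone 1 and 0.02 (SE 0.11) in clone 2. The difference between the clones, -0.27 (SE 0.11), missed the threshold (adjusted p = 0.0984, edgeR). It passed when only the 2 clones were fitted (-0.27, adjusted p = 0.0402), without WT replicate 1 (-0.26, 0.0490) and without WT replicate 2 (-0.26, 0.0491). Aco1 lies on chromosome 4, whose median gene was at 0.16 in clone 1 and -0.15 in clone 2 against WT on the log2 scale. With each clone's chromosome medians against WT removed, the Aco1 difference was 0.05. Per kilobase, the ratio of Ireb2 to Aco1 was 0.381 and 0.329 in the WT libraries, 0.206 and 0.202 for clone 1, and 0.159 and 0.185 for clone 2.

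**Figure D2:**
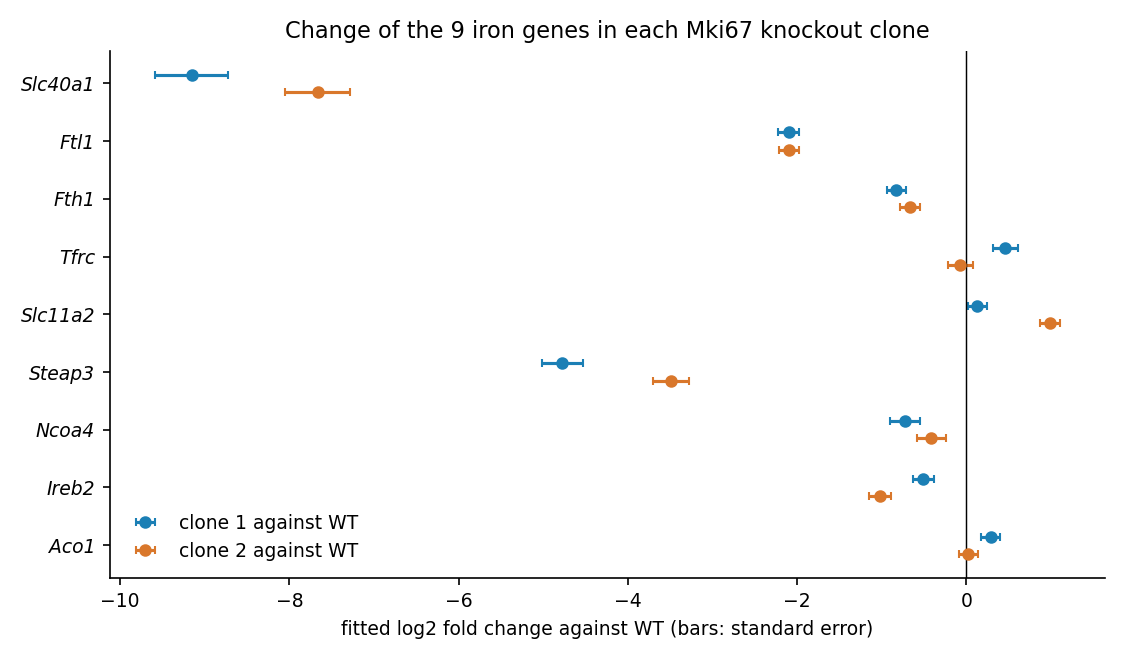
Fitted log2 fold change of each iron gene in clone 1 and clone 2 against WT; points are estimates and bars are standard errors. Ftl1 sits at -2.10 in both clones, Steap3 at -4.78 and -3.49, and the values of Slc40a1 depend on the model's added count because the clones hold 4 reads of it.

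Read by their hairpins, the 3 genes with a 5′ UTR element (Fth1, Ftl1 and Slc40a1) had all 4 clone libraries below WT, with mean log2 fold changes over both clones of -0.75, -2.10 and -8.41. The pair with 3′ UTR elements did not, and each of the pair differed between the clones. Tfrc was at 0.19 over both clones (0.46 in clone 1 and -0.07 in clone 2). Slc11a2 was at 0.56 (0.13 in clone 1 and 0.98 in clone 2). Because Slc40a1 and Ftl1 were chosen for low values in both clones, this split is a description and not a test. RNA counts do not measure translation, which is what a 5′ element is known to control. Among the other iron genes listed, matches included those in Alas2, Atg7, Bola3, Cdc14a, Cisd2, Glrx3 and Iba57. Of these, Alas2 and Bola3 were fully paired. Bola3 was at 0.13 (SE 0.14; adjusted p = 0.468, edgeR), though at 0.40 (adjusted p = 0.0254) without WT replicate 1 and at -0.11 (adjusted p = 0.523) without WT replicate 2, and Alas2 had no read in any library.

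Between the clones themselves, a comparison that did not enter the choice of the genes, 4 of the 9 genes passed the threshold, against 22.0% of all 13755 tested genes. With 1 clone library left out, between 625 and 1711 genes passed in place of 3028. Slc11a2 and Steap3 were higher in clone 2, and Tfrc and Ireb2 were lower there. The 5 that missed it were Slc40a1, Ftl1, Fth1, Ncoa4 and Aco1. For 8 of the 9 genes, Ftl1 being the exception, the 2 libraries of clone 1 did not overlap with those of clone 2, as was the case for 68.2% of all tested genes. For Slc40a1 this rests on 0 and 1 reads in clone 1 against 1 and 2 reads in clone 2, so it shows no separation. Ordered by level per kilobase, Fth1 and Ftl1 led in all 3 groups: Fth1 stood at 2042, 1150 and 1285 CPM per kilobase in WT, clone 1 and clone 2, and Ftl1 at 639, 149 and 149. Tfrc followed at 52.5, 72.2 and 49.9 CPM per kilobase. Aco1, at 19.4, 23.6 and 19.6, came next in WT and clone 1, while in clone 2 Slc11a2 stood above it (11.7, 12.8 and 23.1 CPM per kilobase in WT, clone 1 and clone 2). Ireb2 and Steap3 were at 6.86 and 6.06 CPM per kilobase in WT. In WT the ranges of Ireb2 and Steap3 overlapped, while Slc40a1 (4.87 CPM per kilobase) overlapped with Steap3.

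The positions of the 9 genes were not part of their choice, but the low values of Slc40a1 and Ftl1 were. Slc40a1 and Steap3 both lie on chromosome 1 and the others on 7 different chromosomes. Within 1 Mb of Slc40a1 were 4 tested genes, with a median log2 fold change of 0.22 (mean of both clones against WT) and a lowest value of -1.03. Around Ftl1 were 71, with a median of 0.10 and a lowest value of -1.67. Around Steap3 were 9, with a median of -0.46 and a lowest value of -0.86. In each of these 3 neighbourhoods no tested gene fell as low as the iron gene. For Slc40a1 and Ftl1 their choice for low values made this likely beforehand. Around Fth1, 1 of 26 neighbours was lower than Fth1 (median of the 26, 0.56), around Ireb2 3 of 14 were lower than Ireb2, and around Ncoa4 3 of 20 were lower than Ncoa4. Around Slc11a2, 5 of 34 neighbours were higher than Slc11a2.

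**Figure D3:**
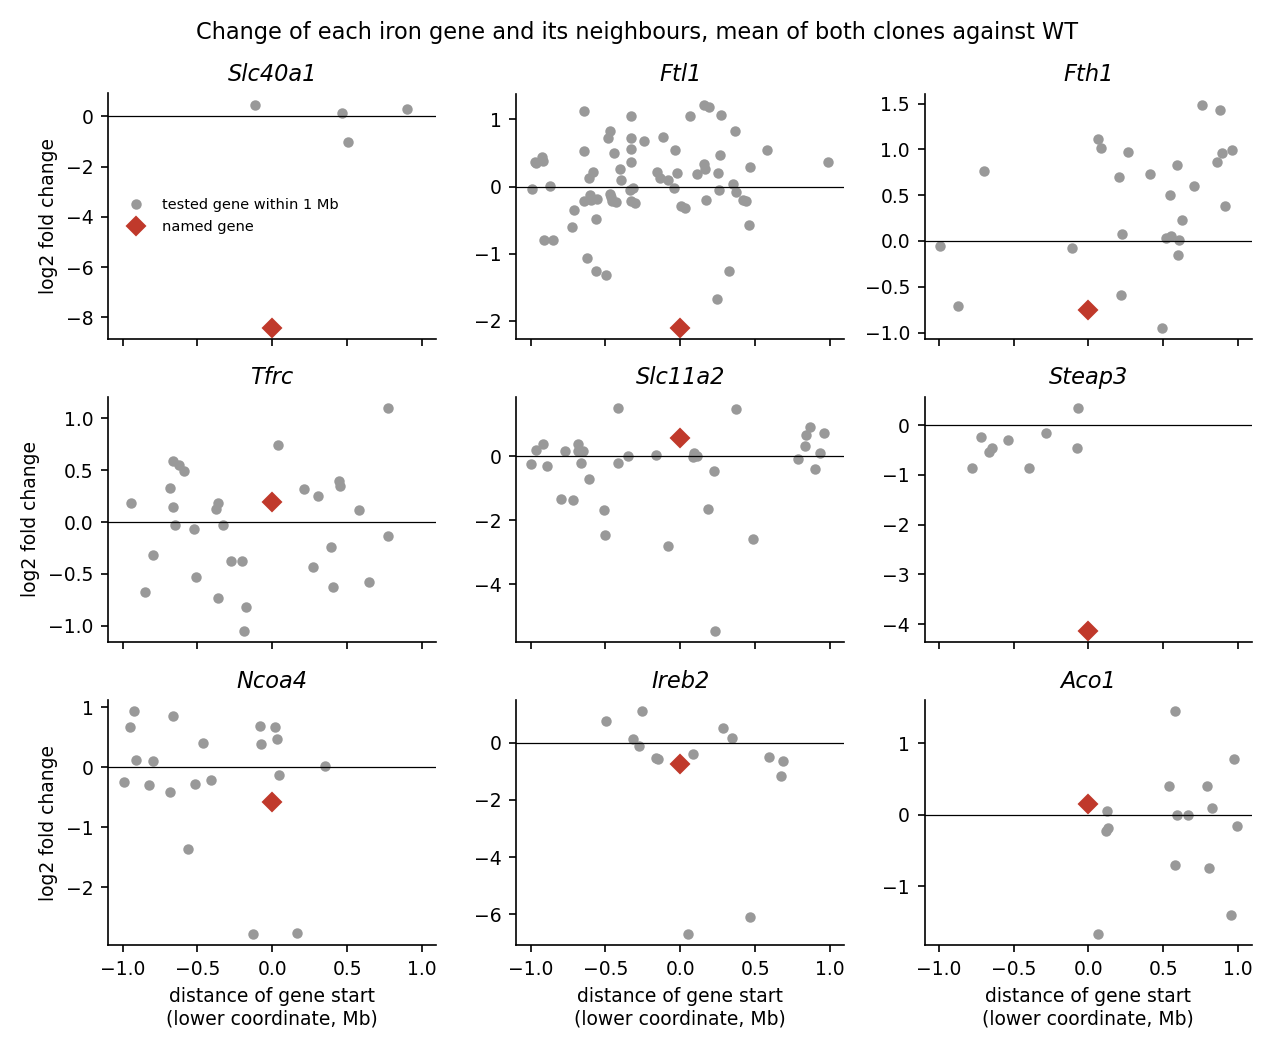
Log2 fold change (mean of both clones against WT) of each iron gene (diamond) and of tested genes within 1 Mb (grey points), against the distance between gene starts in Mb. The diamonds of Slc40a1, Ftl1 and Steap3 lie below all of their 4, 71 and 9 neighbours; Slc40a1 and Ftl1 were chosen for low values in both clones.

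The genes whose profile over the 6 libraries was most like that of Slc40a1 were Zfp518b, Bmp7, Myo5c, Psmb8 and Ston2, by Euclidean distance between centred log2 values with 0.5 CPM added. Zfp518b went from a mean of 17.04 CPM in WT to 0 in clone 1 and 0.0432 CPM in clone 2, and Bmp7 from 13.9 CPM to no read in either clone. For Ftl1 the same rule gave Gm10863, Gm6526, Elovl4, Bend7 and Vstm5. These are genes at 1.60 to 1.76 CPM in WT and 0 to 0.0294 CPM in the clones, whose distance the added 0.5 CPM compresses. Restricted to genes with a mean of at least 50 CPM, a limit chosen after those values were seen, the nearest to Ftl1 were Sqstm1, Slc27a1, Mfsd1, Vim and Pgrmc1. Sqstm1, which encodes the autophagy receptor p62, was at means of 1847, 551 and 523 CPM in WT, clone 1 and clone 2.

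In the main fit the wider iron machinery did not lean one way. Of 105 other iron genes in 7 lists, 104 were matched to the tables (Ndor1 was not analysed here) and 83 had enough reads to be tested. By edgeR's quasi-likelihood test of the mean of both clones against WT, 25 were higher (30.1% of those tested) and 25 were lower (30.1%). Over all tested genes these shares were 26.5% and 29.3%. The median log2 fold change of the 83 was -0.04, against -0.02 over all genes. With upper-quartile scaling 23 of these iron genes were called higher and 32 lower. Of all genes called with that scaling 41.2% were higher, against 47.5% in the main fit. All log2 fold changes and adjusted p in the following paragraphs are from the main fit unless said otherwise. They come from edgeR's test of the mean of both clones against WT.

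**Figure D4:**
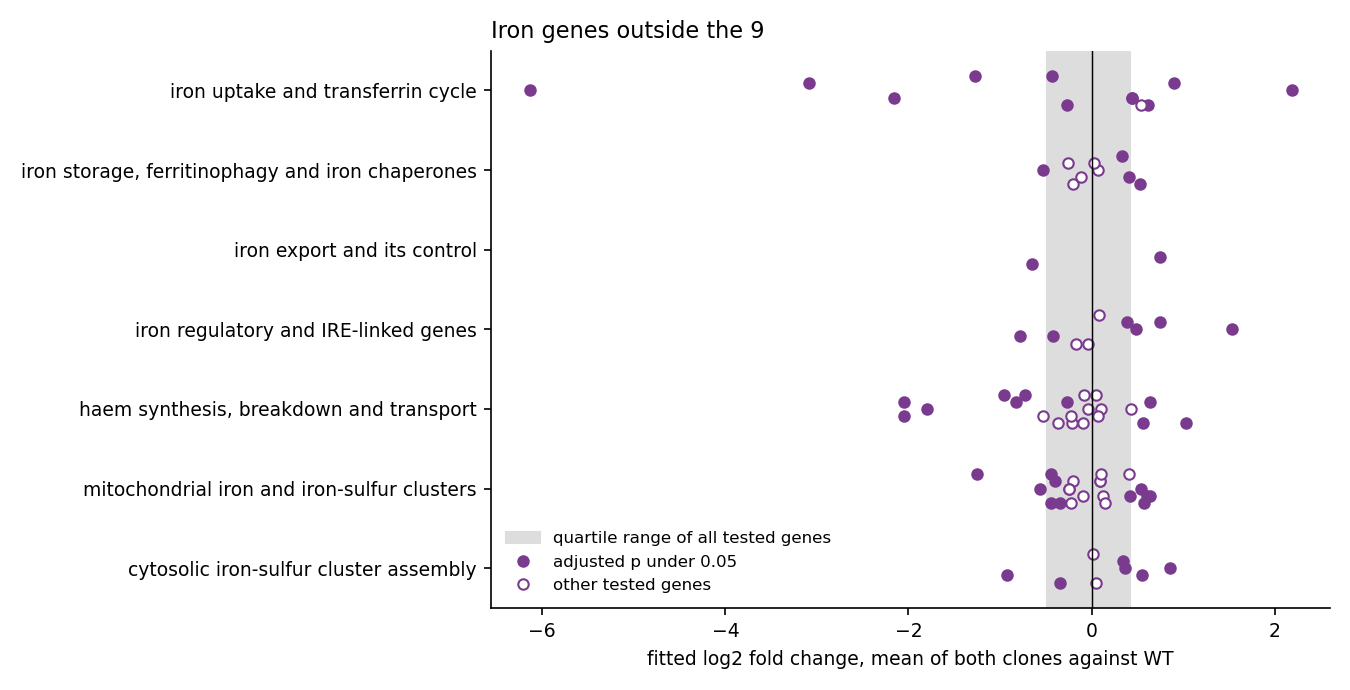
Fitted log2 fold change (mean of both clones against WT) of the 83 tested iron genes outside the 9, by list; filled points passed an adjusted p of 0.05 and the grey band spans the lower to upper quartile of all tested genes. Called genes lie on both sides of 0 in every list, from Hfe at -6.14, a value resting on 9 clone reads, to Slc39a14 at 2.19.

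Among the uptake genes 5 of 12 tested rose and 6 fell (median 0.08). Slc39a14, which encodes the zinc and non-transferrin iron importer ZIP14, rose by 2.19 on the log2 scale (SE 0.11; adjusted p = 3.04e-09), with 32.0 and 29.6 CPM in WT, 111 and 105 CPM in clone 1, and 186 and 177 CPM in clone 2. Its relative Slc39a8 (ZIP8) fell from 12.7 and 11.8 CPM to 1.04 to 1.98 CPM in the clones (-3.08, SE 0.17; adjusted p = 6.66e-09). Both importer genes passed and moved in opposite directions. Hfe, whose protein binds the transferrin receptor, fell from 7.30 and 7.74 CPM to at most 0.135 CPM (adjusted p = 9.11e-10). It had 3 and 3 reads in clone 1 and 2 and 1 reads in clone 2, against 74 and 131 in WT, so its fitted log2 fold change of -6.14 depends on the model's added count. The ratio of WT to both clones was 71.6 (exact 95% interval 36.97 to 159). Scara5, a ferritin receptor, fell by 2.16 on the log2 scale (adjusted p = 3.15e-05). Steap1, of the Steap3 family, rose by 0.62 (adjusted p = 0.000441).

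Lcn2, whose protein lipocalin-2 binds iron-carrying siderophores, was lower in clone 1 and higher in clone 2. It was at 7.10 and 10.5 CPM in WT, 3.31 and 2.65 CPM in clone 1, and 98.6 and 85.8 CPM in clone 2. The mean over both clones (0.90, adjusted p = 0.000381) therefore describes neither clone. The clones differed by 4.95 (SE 0.20; adjusted p = 4.47e-09, edgeR). Trf and Tfr2, for transferrin and the second transferrin receptor, had 1 and 2 reads in all 6 libraries together.

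In the storage list, 3 of 9 tested genes rose, 1 fell and 5 did not pass (median 0.03). Pcbp1, an iron chaperone that loads ferritin, rose by 0.53 (SE 0.10; adjusted p = 0.000390), from 72.8 and 69.5 CPM in WT to 93.6 and 95.04 CPM in clone 1 and 113 and 111 CPM in clone 2. Atg7, an autophagy enzyme, rose by 0.41 (adjusted p = 0.00730), which was lost with the chromosome medians removed (0.20, adjusted p = 0.156). Herc2, a ubiquitin ligase that targets NCOA4, rose by 0.33 (adjusted p = 0.0269). The Herc2 call was lost without WT replicate 1 (0.25, adjusted p = 0.126), clone 1 replicate 1 (0.30, 0.0861) or clone 2 replicate 2 (0.23, 0.0904), and with upper-quartile scaling (0.26, 0.0706). Pik3c3, the lipid kinase of early autophagy, fell by 0.53 on the log2 scale (adjusted p = 0.00122). The mitochondrial ferritin gene Ftmt had no read.

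Only 2 of 10 genes of the export list could be tested. Cp, for the ferroxidase ceruloplasmin that works with ferroportin, was at 64.5 and 66.96 CPM in WT, 29.4 and 24.7 CPM in clone 1, and 63.1 and 66.9 CPM in clone 2. It was low in clone 1 and overlapped with WT in clone 2. The mean contrast (-0.65, SE 0.10; adjusted p = 0.000143) thus rests on clone 1, and the clones differed by 1.27 (SE 0.12; adjusted p = 2.64e-05). Smad4, which carries the BMP signal to the hepcidin gene in liver, rose by 0.75 (adjusted p = 3.01e-05). Hamp, for hepcidin, had 1 read in all, and Heph, for the ferroxidase hephaestin, had none.

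Of the regulatory and IRE-linked genes, 4 of 9 tested rose and 2 fell (median 0.08). Zc3h12a, for the RNase Regnase-1 that degrades Tfrc mRNA among others, rose from 5.52 and 8.21 CPM in WT to 12.4 and 11.6 CPM in clone 1 and 34.2 and 34.4 CPM in clone 2 (1.54, SE 0.16; adjusted p = 2.96e-06). Zfp36, for tristetraprolin, which also binds Tfrc mRNA, rose by 0.75 (adjusted p = 0.00114). Cdc14a, a phosphatase gene with an IRE match in its 3′ UTR, rose by 0.49 (adjusted p = 0.00234). Against WT by edgeR, Cdc14a was at 0.76 (adjusted p = 0.000258) in clone 1 and 0.22 (adjusted p = 0.170) in clone 2. Nfe2l2, for the factor NRF2 that is known to drive ferritin and ferroportin genes, fell from 188 and 134 CPM to 97.0 and 101 CPM in clone 1 and 85.9 and 90.4 CPM in clone 2 (-0.78, SE 0.12; adjusted p = 0.000107). Bach1, for a repressor of the same genes, fell by 0.43 on the log2 scale (adjusted p = 0.00805), a call lost without WT replicate 2 (-0.28). Against WT by edgeR, Bach1 was at -0.28 (adjusted p = 0.111) in clone 1 and -0.57 (adjusted p = 0.00364) in clone 2. Fbxl5, for the ubiquitin ligase subunit that removes IRP2, was at 0.08 (SE 0.09; adjusted p = 0.514), and at 0.25 (adjusted p = 0.0433) with the chromosome medians removed.

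In haem metabolism 3 of 21 tested genes rose, 7 fell and 11 did not pass (median -0.21). Blvrb, a biliverdin reductase, fell (log2 fold change -2.05, SE 0.14; adjusted p = 4.22e-08), as did Pgrmc1, a haem-binding membrane protein (-2.04, SE 0.11; adjusted p = 6.59e-09), and Abcg2, an exporter of haem and drugs (-1.80, SE 0.16; adjusted p = 6.07e-07). Slc25a38, the mitochondrial glycine carrier of haem synthesis, rose by 1.03 (adjusted p = 0.000107) and Alad, an early enzyme of the pathway, by 0.64 (adjusted p = 0.000358). Abcb10, a mitochondrial transporter, rose by 0.56 (adjusted p = 0.000359), a call lost with the chromosome medians removed (0.23, adjusted p = 0.0726). Hmox1, the inducible haem oxygenase that frees iron from haem, was at 48.5 and 33.1 CPM in WT, 38.1 and 38.2 CPM in clone 1, and 53.4 and 42.6 CPM in clone 2 (0.07, SE 0.15; adjusted p = 0.691). That value was 0.38 (adjusted p = 0.0340) without WT replicate 1, -0.18 (adjusted p = 0.284) without WT replicate 2, -0.01 (adjusted p = 0.975) without clone 2 replicate 1, and -0.26 (adjusted p = 0.146) with the chromosome medians removed.

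Of the mitochondrial iron and iron-sulfur genes 5 of 22 tested rose and 6 fell (median -0.0018). Slc25a37, the mitochondrial iron importer mitoferrin-1, rose by 0.61 (adjusted p = 0.000204), and Nfu1, a cluster carrier, by 0.63 (adjusted p = 0.000311). Hscb, a co-chaperone of cluster transfer, fell by 1.25 (SE 0.16, adjusted p = 1.56e-05) and Fdx1, a ferredoxin, by 0.45 (adjusted p = 0.00636), on the log2 scale. Cisd1, an outer-membrane cluster protein, fell by 0.57 on that scale (adjusted p = 0.000429). Against WT by edgeR, Cisd1 was at -0.89 (adjusted p = 5.41e-05) in clone 1 and -0.24 (adjusted p = 0.111) in clone 2. The Cisd1 call was lost with the chromosome medians removed (-0.18, adjusted p = 0.172) and that of Fdx1 without WT replicate 2 (-0.29, adjusted p = 0.0880).

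In the cytosolic cluster assembly list 4 of 8 tested genes rose and 2 fell (median 0.19). Ciao2b rose by 0.86 (SE 0.12; adjusted p = 6.07e-05), while its paralogue Ciao2a, known for maturing IRP1, fell by 0.92 (SE 0.10; adjusted p = 3.34e-06) on the log2 scale. Ciao2a went from 71.3 and 67.9 CPM in WT to between 34.4 and 40.2 CPM in the clones. Nubp1 and Nubp2, the scaffold pair, rose by 0.55 (adjusted p = 0.000595) and 0.37 (adjusted p = 0.0110). The Nubp2 call was lost with the chromosome medians removed (0.01, adjusted p = 0.970). Ciao1 fell by 0.35 on the log2 scale (adjusted p = 0.00792), a call lost without clone 1 replicate 2 (-0.31) and with no count filter (-0.27, adjusted p = 0.0584). Against WT by edgeR, Ciao1 was at -0.45 (adjusted p = 0.00514) in clone 1 and -0.25 (adjusted p = 0.0804) in clone 2.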

How the data were processed

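Total RNA of cultured 4T1 cells was rRNA-depleted and made into stranded libraries, per the labels' protocols. STAR 2.6.0c, GRCm38 and FastQC are named in the submitters' processing notes. The deposited values are raw read counts per Ensembl gene, with unstranded, forward and reverse columns, as STAR writes them. The reverse column was used, as it holds 92.3% to 95.7% of the stranded gene reads, and the unstranded one as an alternative. STAR counts only uniquely mapped reads; multi-mapped reads were 24.7% to 29.3%, and rows that name no gene, which were left out, 46.9% to 56.8% of all reads. Symbols came from GENCODE M21 (67 of 54146 identifiers were not matched).

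All 6 libraries were fitted with edgeR 4.0.16 (R 4.3.3; quasi-likelihood test, TMM, filterByExpr, robust, 1 term per group), leaving 13755 genes; calls are at an adjusted p under 0.05, Benjamini-Hochberg over all genes. The common biological coefficient of variation was 10.3%. Duplicates of each group differed beyond counting noise. The chi-square per degree of freedom was 82.2 in WT, 19.4 in clone 1 and 26.6 in clone 2. The fit used a dispersion shared by all groups, so it took WT to vary like the clones. The script was tested on simulated data. Levels per kilobase use the APPRIS principal transcript, the lowest-numbered where several tie. Alternatives were DESeq2 (1.42.0) scaling and Wald test, upper-quartile scaling, limma-voom (3.58.1), other count filters (none, or 1 CPM in 2 libraries), unstranded counts, a replicate block, chromosome medians removed, only the compared groups, each library left out and, chosen after seeing the data, the older quasi-likelihood fit of edgeR. These alternatives were extended after seeing the data to the clone differences of 13 other iron genes and to Bola3, Hmox1 and Fbxl5.

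The 9 genes and the lists were chosen with earlier results of these data known. Named are the 9, up to 3 called genes per list and direction with the smallest adjusted p, genes with an IRE match, and the 5 nearest profiles of Slc40a1 and Ftl1. Some genes that this rule names are not reported here. Other genes named beside them (Hmox1, Fbxl5, Trf, Tfr2, Hamp, Heph and Ftmt) were chosen for their known role after their values were seen.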

Additional observations from a re-analysis of the deposited data

Results flagged for a closer look

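Several iron genes differed between the 2 knockout clones by edgeR's quasi-likelihood test of clone 2 against clone 1, so that 1 value for the knockout does not describe both. Among the 9 genes the log2 differences were -0.53 for Tfrc, 0.85 for Slc11a2, 1.28 for Steap3 and -0.51 for Ireb2, of which that of Slc11a2 alone passed whichever library was left out.

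Outside the 9, 13 named iron genes differed between the clones, and 4 of them passed whichever single library was left out. These were Lcn2 (4.95, adjusted p = 4.47e-09), Cp (1.27, adjusted p = 2.64e-05), Zc3h12a (1.52, adjusted p = 5.52e-05) and Slc39a14 (0.75, adjusted p = 0.000645), all by edgeR. The other 9 lost the call without at least 1 clone library. Slc39a8 (-0.76, adjusted p = 0.0427), Blvrb (0.52, 0.0485), Abcg2 (0.84, 0.0115) and Slc25a37 (0.43, 0.0164) lost it without any 1 of the 4 clone libraries, with adjusted p of 0.114 to 0.245, 0.0717 to 0.307, 0.0543 to 0.118 and 0.0737 to 0.154. With the chromosome medians removed Slc25a37 was at 0.10 (adjusted p = 0.552). Among all alternatives Blvrb lost the call in 11 and Slc39a8 in 9. For both, these included edgeR with no count filter (adjusted p = 0.0893 and 0.0731) and the DESeq2 Wald test (0.107 and 0.133). Steap1 (0.59, adjusted p = 0.00626) lost it without clone 1 replicate 2 (0.0742) or clone 2 replicate 1 (0.0821), and Cisd1 (0.65, 0.00298) without clone 2 replicate 1 (0.0513). Cdc14a (-0.54, adjusted p = 0.00859) and Ciao2b (0.53, 0.0154) lost it without either clone 1 library or clone 2 replicate 1, with adjusted p of 0.0527 to 0.124 and 0.0847 to 0.176. Pgrmc1 (0.51, adjusted p = 0.0175) lost it without either clone 1 library (0.111 and 0.119) or clone 2 replicate 2 (0.29, 0.153). With 1 clone on each side, a difference between clones and a difference between their cultures cannot be told apart.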

How the results depend on the processing

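Every alternative kept the direction from WT of all 9 genes except Tfrc and Aco1 in clone 2. Tfrc there became 0.00177 with no count filter and 0.0277 with chromosome medians removed, and ranged from -0.236 to 0.115 with 1 library left out. Aco1 there became -0.0683 with upper-quartile scaling and -0.00249 with the filter of 1 CPM in 2 libraries, and ranged from -0.0260 to 0.0834 with 1 library left out. Between the clones, Ftl1 (0.01) changed sign to -0.0260 with upper-quartile scaling, -0.00596 with no filter, -0.00873 with the 1 CPM filter, -0.0541 unstranded and -0.0947 with chromosome medians removed, and ranged from -0.0311 to 0.0391 with 1 library left out. With chromosome medians removed Ncoa4 became -0.0142 and Aco1 0.0498 there. Over both clones, Bola3 (0.13) became -0.0868 and Hmox1 (0.07) became -0.264 with chromosome medians removed; with 1 library left out they ranged from -0.109 to 0.397 and from -0.179 to 0.379. The cause was not tested. Genes called between the clones numbered 3028 with all libraries, and 625 to 4445 with 1 left out, which leaves a group with 1 library assumed to vary like the others. Iron genes outside the 9 called higher numbered 21 to 26 and called lower 21 to 32 over all alternatives.

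Whether the replicate numbers pair libraries across groups could not be settled. Across genes the replicate differences correlated at -0.23 for WT and clone 1, 0.07 for WT and clone 2, and -0.00 for the 2 clones. With the replicate block 7389 genes were called in the mean of both clones against WT, compared with 7673 without it, and the only named calls it ended were those of Slc39a8 (-0.76, adjusted p = 0.0640) and Blvrb (0.52, adjusted p = 0.0709) between the clones, by edgeR. Depth limits Slc40a1 in the clones (4 reads), Hfe in the clones (9 reads) and Steap3 in clone 1 (16 and 13 reads). Shared sequence limits the levels of Ftl1 and Ncoa4.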
